A study of Mus musculus with 24 samples.

Results

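Stereocilia are the actin-filled protrusions on the apical surface of auditory hair cells (HCs), and 10 genes of their actin core, tips and base were followed in cultured mouse organs of Corti (OCs). They were taken by Entrez identifier from the deposited counts table of 24454 genes, as the rows that map to Espn, Myo3a, Myo3b, Myo6, Myo15a, Whrn, Eps8, Eps8l2, Xirp2 and Grxcr1. All 10 had enough counts to be among the 16317 genes tested. The OCs came from C57BL/6N pups of both sexes at postnatal day 5 and had all spent 24 h in a medium with penicillin and fetal calf serum before the drugs were added. Then 6 or 24 h followed under one of 4 conditions. CTRL had medium alone, GM had gentamicin at 50 μM, PIO had pioglitazone at 10 μM, and PIO + GM had the drugs together at the same doses. Gentamicin, an aminoglycoside, is toxic to HCs, and pioglitazone activates the nuclear receptor PPAR-γ. Each of the 8 groups had 3 libraries, and each library pooled 6 OCs, so that variation between animals within a pool was not measured. The drug comparisons ask how the genes of the stereocilia respond to an ototoxic drug with and without a PPAR-γ agonist, and the comparison of 24 with 6 h asks how they differ with time in culture.

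A stereocilium is a bundle of parallel actin filaments whose growing ends lie at its tip, and rows of stereocilia of graded height form the hair bundle that senses sound. Espin, the product of Espn, crosslinks the filaments, and the class III myosins of Myo3a and Myo3b carry espin proteins towards the tips. Myosin XVa, from Myo15a, brings the scaffold whirlin (Whrn) and the actin regulator EPS8 (Eps8) to the tips and is needed for stereocilia to reach their height, and EPS8L2 (Eps8l2) is a relative of EPS8 at the same place. Myosin VI, from Myo6, walks the other way along actin and acts near the base of the stereocilia. XIRP2 is an actin-binding protein of stereocilia that is also made in striated muscle, and GRXCR1 is a glutaredoxin-like protein of the hair bundle. Mutations in most of these genes cause deafness in mice or people.

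Counts on genes ranged from 7211357 to 15548856 per library, at which 3 counts correspond to 0.193 to 0.416 CPM (counts-per-million units), a floor that reflects counting error alone. HC genes were present in every library, with the transcription factor gene Pou4f3 at 3.64 to 21.2 CPM, Myo7a at 30.9 to 96.1 and Otof at 54.9 to 205. The supporting cell gene Sox2 lay at 29.8 to 90.1 CPM, the neuronal gene Tubb3 at 6.68 to 49.6, the macrophage gene Csf1r at 9.59 to 55.7 and the mesenchymal gene Col1a1 at 8.86 to 370, so the explants held other cells beside HCs. Of libraries that stood apart, 3 had the strongest dependence of counts on GC content, with Spearman's rho between -0.68 and -0.49 over genes against -0.10 to 0.39 in the other 21 libraries. They were PIO 6 h replicate 2, PIO + GM 6 h replicate 2 and PIO + GM 6 h replicate 3. The last had the fewest counts of all, 7211357. Olfactory and vomeronasal receptor genes together had 208, 100 and 278 CPM in these 3, against 38.7 to 165 in the other 21 libraries. At 24 h, replicate 2 of every treatment had the lowest sum over a list of 28 HC genes that holds none of the 10, at 610 CPM in CTRL, 421 in GM, 389 in PIO and 317 in PIO + GM, against 464 to 946 in the other libraries of that time. The same 4 libraries had the lowest sums over 16 supporting cell genes, at 3617 to 4820 CPM against 7102 to 8897 in the other 8, and the highest over 13 macrophage genes, at 175 to 257 CPM against 83.3 to 138. Nothing in the labels says that these libraries came from separate litters or cultures beyond separate wells, so the spread between them may be partly technical. In such pooled tissue, fewer HCs and less RNA per HC cannot be told apart.

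Myo6 was by far the most abundant of the 10 per gene length, the only scale on which genes are compared here. Its level averaged 53.2 RPKM (CPM per kilobase of gene length) over the 24 libraries and ranged from 31.3 to 73.8, which placed it at the 94.3rd percentile of all genes tested. Eps8l2 followed with a mean of 11.1 RPKM and Eps8 with 8.67. Then came Whrn at 4.48, Grxcr1 at 4.28, Myo3a at 3.44, Espn at 2.32, Myo15a at 2.20, Myo3b at 1.97 and Xirp2 at 1.19 RPKM. The lowest Myo6 library of every group lay above the highest library of the next gene in all 8 groups. In CTRL at 24 h, the order below Myo6 was Eps8l2, Eps8, Grxcr1, Myo3a, Whrn, Myo15a, Myo3b, Espn and Xirp2. The libraries of Eps8l2 and Eps8, of Eps8 and Grxcr1, of Whrn and Myo15a and of Espn and Xirp2 did not overlap there, whereas those of the other neighbours did. At 6 h in CTRL, the libraries of Eps8l2 and Eps8 overlapped, and below Grxcr1 no pair of neighbours was apart. Xirp2 is a muscle gene as well, and muscle transcripts were scarce. Acta1 lay at 0.132 to 0.868 CPM, and Myod1, Myog and Xirp1 reached at most 0.441, 0.676 and 1.19 CPM with libraries at 0. The summed level of the whole list of 18 muscle genes was nevertheless between 18.4 and 127 CPM, and its part in the Xirp2 counts was not tested.

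**Figure D1:**
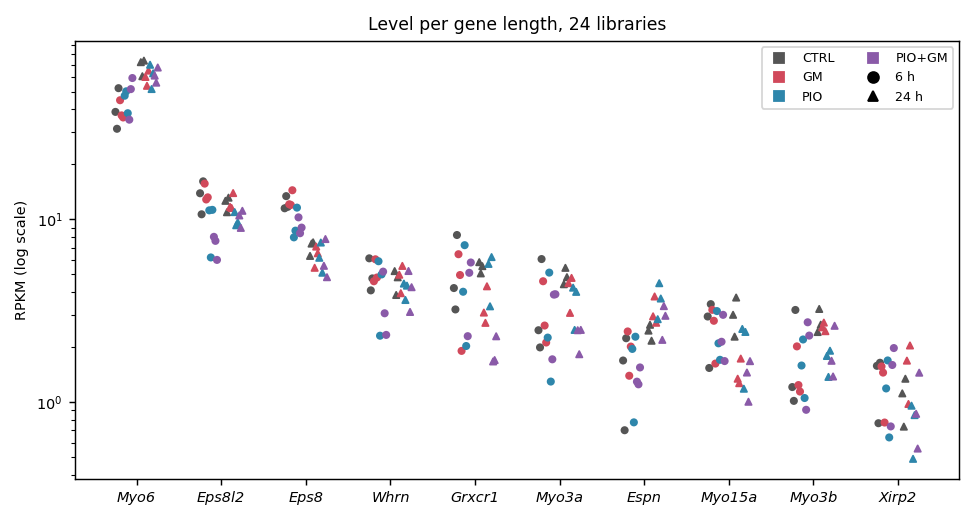
RPKM of the 10 genes on a log axis, one point per library (circles, 6 h; triangles, 24 h), coloured by treatment. Myo6 lay between 31.3 and 73.8 RPKM, above every library of the other 9 genes, and the order is by the mean over 24 libraries.

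Time in culture gave the most calls among the 10 genes. Averaged over the 4 treatments, 24 h against 6 h, Espn and Myo6 rose and Eps8 fell by edgeR's quasi-likelihood test with Benjamini-Hochberg adjustment, and the other 7 did not pass. These 3 of 10 stand beside a background of 62.6% of all genes tested that were called in the same comparison, so calls were no more common among the stereocilia genes than among genes at large. The median log2 fold change of the 10 was 0.02, as was that of all genes tested.

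Eps8, at chr6:137477245-137649397 on the minus strand (build GRCm38, as all coordinates here), encodes a protein that caps and bundles actin at the tips. Over the 12 libraries of 6 h it lay at 39.3 to 71.2 CPM with a median of 56.9, and over the 12 of 24 h at 23.8 to 38.5 with a median of 31.6. Every library of 24 h was thus below every library of 6 h. The log2 fold change was -0.75 ± 0.09 (SE, adjusted p = 7.26e-07 by edgeR's quasi-likelihood test), or 0.594-fold. Groups of 12 libraries that did not overlap in this direction were found for 6.37% of all genes tested.

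The fall of Eps8 was present in each treatment. In CTRL its CPM were 56.7, 66.1 and 57.7 at 6 h and 31.1, 36.3 and 36.9 at 24 h (log2 fold change -0.79 ± 0.18, adjusted p = 0.00305 by edgeR). In GM they were 59.6, 59.1 and 71.2 at 6 h and 26.8, 35.0 and 32.2 at 24 h (-1.01 ± 0.18, adjusted p = 0.000531 by edgeR). The groups were apart in both cases. In PIO they were 39.3, 42.8 and 57.2 at 6 h and 30.4, 36.8 and 25.2 at 24 h (-0.59 ± 0.18, adjusted p = 0.0194 by edgeR). In PIO + GM they were 50.6, 41.4 and 44.5 at 6 h and 27.5, 38.5 and 23.8 at 24 h (-0.60 ± 0.18, adjusted p = 0.0147 by edgeR). The CTRL and GM calls held without any one library. The PIO call was lost without PIO 24 h replicate 1 (adjusted p = 0.0596 by edgeR), PIO 24 h replicate 3 (0.0932) or PIO 6 h replicate 3 (0.101). The PIO + GM call was lost without PIO + GM 24 h replicate 1 (adjusted p = 0.0678 by edgeR), PIO + GM 24 h replicate 3 (0.0836) or PIO + GM 6 h replicate 1 (0.0542).

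Myo6, at chr9:80164976-80311729 on the plus strand, encodes the myosin of the stereocilia base. It lay at 246 to 466 CPM with a median of 328 over the 12 libraries of 6 h and at 406 to 580 with a median of 488 over those of 24 h. The ranges overlapped, since PIO + GM 6 h replicate 3 at 466 CPM and CTRL 6 h replicate 3 at 410 lay above the lowest library of 24 h. The log2 fold change was 0.54 ± 0.10 (adjusted p = 6.96e-05 by edgeR), or 1.45-fold. Within treatments, CPM in CTRL were 304, 246 and 410 at 6 h and 569, 477 and 580 at 24 h (0.76 ± 0.19, adjusted p = 0.00603 by edgeR). In GM they were 353, 291 and 284 at 6 h and 473, 423 and 512 at 24 h (0.60 ± 0.19, adjusted p = 0.0265 by edgeR). The 24 h libraries were all higher in both treatments. The GM call was lost without GM 24 h replicate 1 (adjusted p = 0.0626 by edgeR), GM 24 h replicate 3 (0.0816), GM 6 h replicate 2 (0.0934) or GM 6 h replicate 3 (0.0741). In PIO the difference was 0.44 ± 0.19 (adjusted p = 0.0833 by edgeR) and in PIO + GM 0.34 ± 0.19 (adjusted p = 0.168 by edgeR), neither of which passed.

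Espn, at chr4:152120331-152152414 on the minus strand, encodes the filament crosslinker. It had 2.21 to 7.65 CPM with a median of 5.09 over the 12 libraries of 6 h and 6.81 to 14.1 with a median of 9.10 over those of 24 h. The groups overlapped between 6.81 and 7.65 CPM. The log2 fold change was 0.88 ± 0.18 (adjusted p = 0.00026 by edgeR), or 1.84-fold. By treatment, Espn passed in PIO, where CPM were 6.14, 2.44 and 7.16 at 6 h and 8.93, 14.1 and 11.6 at 24 h (1.12 ± 0.35, adjusted p = 0.0231 by edgeR). It also passed in PIO + GM, with 4.07, 3.93 and 4.86 at 6 h and 6.88, 10.5 and 9.32 at 24 h (1.06 ± 0.36, adjusted p = 0.0287 by edgeR). All 24 h libraries were higher in both. In CTRL the difference was 0.65 ± 0.36 (adjusted p = 0.185 by edgeR) and in GM 0.69 ± 0.35 (adjusted p = 0.155 by edgeR). Whether the rise differed between treatments was tested as an interaction and did not pass (PIO effect at 24 h minus 6 h, 0.47 ± 0.50, adjusted p = 0.898 by edgeR).

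The Espn transcript has 62.1% GC, above 98.3% of the genes tested, and log2 fold changes of 24 h against 6 h moved with GC content in PIO (Spearman's rho 0.31 over 15389 genes) and in PIO + GM (0.35), but little in CTRL (0.03) and GM (0.07). With a trend on GC content removed from each library, the Espn difference was 0.77 in PIO (adjusted p = 0.0546 by edgeR) and 0.49 in PIO + GM (adjusted p = 0.224 by edgeR), so both calls were lost, whereas the mean over the 4 treatments kept its call. The PIO call was also lost without PIO 24 h replicate 2 (adjusted p = 0.0903 by edgeR) or PIO 6 h replicate 2 (0.116). The PIO + GM call was lost without PIO + GM 24 h replicate 2 (adjusted p = 0.0932 by edgeR), PIO + GM 24 h replicate 3 (0.0650), PIO + GM 6 h replicate 1 (0.0621) or PIO + GM 6 h replicate 2 (0.0973).

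Within each treatment, 2 of the 10 were thus called with time, against a background of 28% of genes in CTRL, 24.2% in GM, 29% in PIO and 34.6% in PIO + GM, and DESeq2 called 2, 2, 2 and 3. Beside Eps8, Myo6 and Espn, the other 7 ran from -0.33 for Xirp2 to 0.61 for Myo3b in CTRL, from -0.81 for Myo15a to 0.82 for Myo3b in GM and from -0.61 for Xirp2 to 0.32 for Myo3a in PIO. In PIO + GM, Grxcr1 had the largest difference of the 10, with 2.46, 5.46 and 6.21 CPM at 6 h and 1.79, 1.82 and 2.45 at 24 h (-1.21 ± 0.49, adjusted p = 0.0599 by edgeR). Eps8l2 had 24.6, 23.4 and 18.4 CPM at 6 h and 32.2, 27.5 and 34.1 at 24 h (0.50 ± 0.19, adjusted p = 0.0542 by edgeR). Neither passed, although the groups were apart, those of Grxcr1 narrowly. Over the fits run, each gene passed in 2 of 16. Myo15a differed there by -0.73 ± 0.35 (adjusted p = 0.107 by edgeR) and the remaining 4 by -0.58 for Xirp2 to 0.24 for Whrn. The members that did not pass averaged over treatments were Myo15a (log2 fold change -0.38 ± 0.17, adjusted p = 0.0578 by edgeR), Myo3b (0.36), Grxcr1 (-0.33), Xirp2 (-0.30), Myo3a (0.18), Eps8l2 (0.06) and Whrn (-0.01). Myo15a sat close to the threshold and passed it in 11 of 33 fits, among them DESeq2's Wald test and the fit with the GC trend removed. Among 47 other genes of the stereocilia that were tested, 14 rose and 8 fell with time averaged over treatments, where 62.6% of all genes tested were called. The 6 with the lowest p that rose were Clic5 (0.69), which links the membrane to actin at the base, the actin-severing gene Gsn (0.43), the plastin gene Lcp1 (0.85), which is also a leukocyte gene, the capping subunit Capzb (0.18), the Eps8 relative Eps8l1 (0.54) and the tip-link scaffold Ush1c (0.66). Those with the lowest p that fell were the actin disassembly factor Wdr1 (-0.61), the G protein gene Gnai3 (-0.48), the tropomodulin Tmod3 (-0.57), the cofilin Cfl1 (-0.26), the membrane linker Rdx (-0.33) and the formin Diaph1 (-0.29). Of 13 macrophage genes, 8 were called higher and 1 lower, with a summed level of 62.7 to 164 CPM at 6 h and 83.3 to 257 at 24 h, and their part in the rise of Lcp1 was not tested. HC genes were called in both directions in the same comparison, against the same background of 62.6%. Of 26 tested, 5 were called higher, Tmie (0.82), Pou4f3 (0.57), Ikzf2 (0.33), Atoh1 (0.73) and Tmc2 (0.66). Another 4 were called lower, Slc17a8 (-1.55), Calb2 (-1.03), Chrna9 (-1.10) and Slc26a5 (-1.005).

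Markers of the other cell types were also called with time averaged over treatments, beside the calls of Eps8, Myo6 and Espn. Of 12 Schwann cell genes 8 were called lower and 1 higher (median log2 fold change -1.18), with a summed level of 563 to 3237 CPM at 6 h and 679 to 1863 at 24 h. Of 14 neuronal genes 9 were called lower and 1 higher (median -0.96), at 216 to 683 CPM at 6 h and 312 to 558 at 24 h. Of 16 supporting cell genes 7 were called higher and 1 lower (median 0.26), at 3767 to 7488 CPM at 6 h and 3617 to 8897 at 24 h. Of 10 mesenchymal genes 4 were called higher and 1 lower (median 0.26), at 3126 to 5791 CPM at 6 h and 3716 to 7711 at 24 h. Of 10 muscle genes tested 3 were called higher and 5 lower (median -1.04), and the macrophage median was 0.56. The summed ranges of the 2 times overlapped for each list, and the part of these cell types in the calls of the 3 members was not tested.

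**Figure D2:**
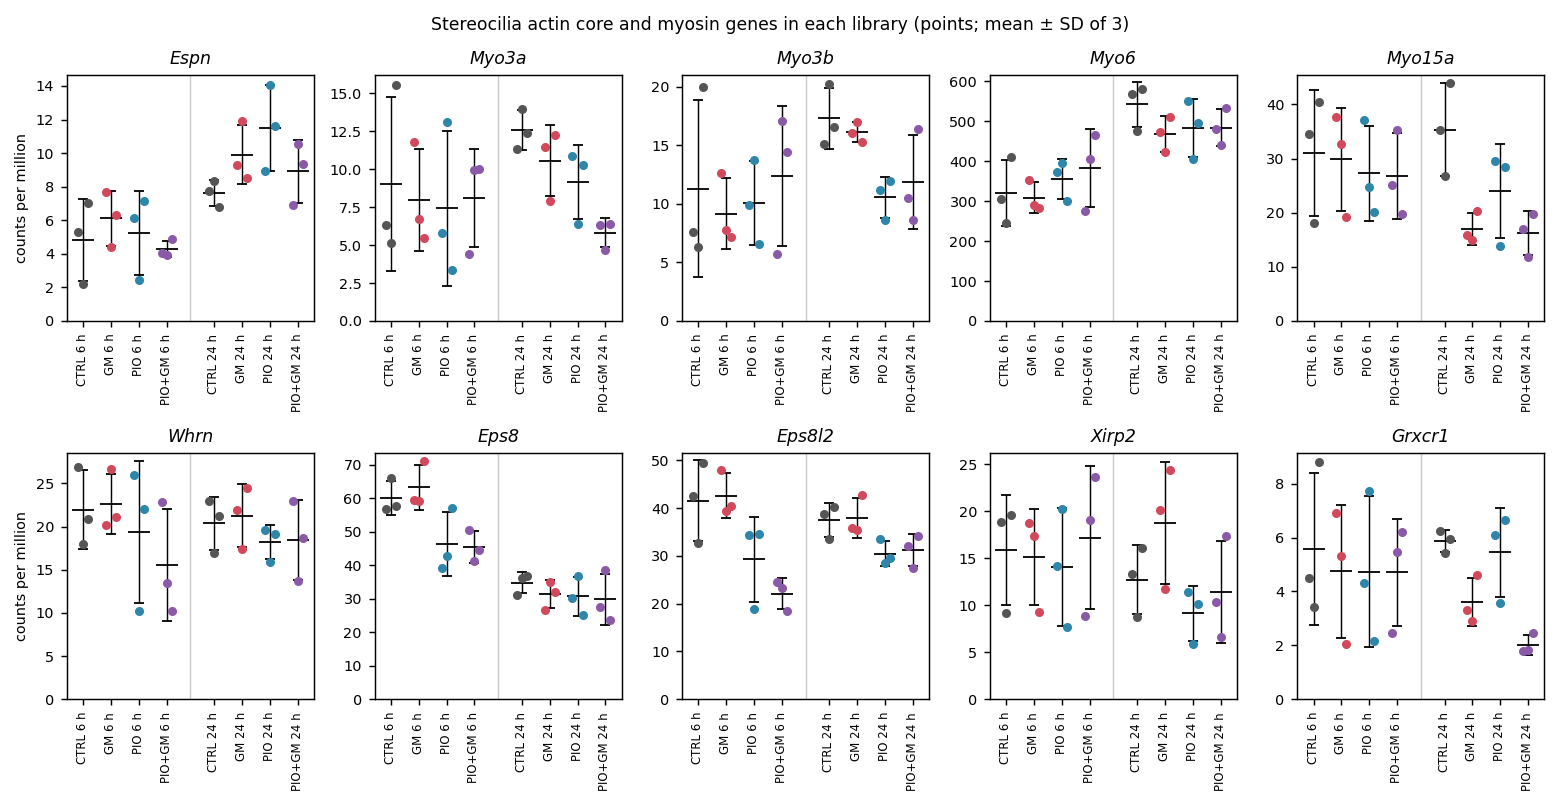
CPM of each of the 10 genes in the 8 groups, one point per library, with the mean and SD of 3 libraries. Eps8 lay at 39.3 to 71.2 CPM at 6 h and at 23.8 to 38.5 at 24 h, whereas the groups of most other genes overlapped between times.

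Gentamicin alone changed none of the 10 genes by the test at either time. At 6 h, edgeR called 0 of the 10 against CTRL, as DESeq2 did, 0 had an unadjusted p under 0.05 (1.49% of all genes tested), and log2 fold changes ran from -0.31 for Myo3b to 0.33 for Espn. The background was 0% of all genes tested, so the comparison gave no call for any gene. Groups of libraries were apart for 0 members at 6 h, against 5.23% of all genes tested. At 24 h, edgeR and DESeq2 again called 0 of the 10, against a background of 0.0123%, and 1 had an unadjusted p under 0.05, as 1.67% of all genes tested did.

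That gene was Myo15a, the tip motor. It lies at chr11:60469339-60528369 on the plus strand, and the second gene with lower libraries under GM, Grxcr1, lies at chr5:68031835-68166398 on the plus strand. The 250 bases before the start of each, at chr11:60469089-60469338 and chr5:68031585-68031834, are shown with capitals for CANNTG, the E-box motif that HC transcription factors of the ATOH1 kind bind, because all libraries of both genes were lower in GM than in CTRL at 24 h. The sequences are from RefSeq, build GRCm38.p6, and were found for 9 of the 10 genes.
Myo15a: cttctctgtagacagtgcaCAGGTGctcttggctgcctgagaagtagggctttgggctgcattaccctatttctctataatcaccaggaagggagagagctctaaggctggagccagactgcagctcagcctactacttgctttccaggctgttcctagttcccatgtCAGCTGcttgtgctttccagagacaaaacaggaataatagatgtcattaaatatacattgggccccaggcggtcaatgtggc
Grxcr1: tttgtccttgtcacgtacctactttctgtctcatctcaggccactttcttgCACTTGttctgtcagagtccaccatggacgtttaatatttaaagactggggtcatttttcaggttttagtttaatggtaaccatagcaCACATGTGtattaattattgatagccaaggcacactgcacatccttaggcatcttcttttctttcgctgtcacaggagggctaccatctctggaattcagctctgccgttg
The Myo15a window holds 2 matches and the Grxcr1 window 3, of which 2 overlap in the run cacatgtg. The motif reads the same in both directions, and 66.2% of 32851 mouse promoter windows of this length hold at least 1. The PPAR-type half-site AGGTCA or its reverse TGACCT, which 14.0% of the windows hold, is in neither.

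At 24 h, Myo15a had 35.3, 26.8 and 43.9 CPM in CTRL and 15.8, 14.9 and 20.4 in GM. All 3 GM libraries were below all 3 CTRL libraries. The log2 fold change was -1.05 ± 0.34, with an unadjusted p of 0.00638 and an adjusted p of 1.00 by edgeR, and the adjusted p stayed between 0.579 and 1.00 over all alternatives. At 6 h the values had been 34.6, 18.1 and 40.4 CPM in CTRL and 37.6, 32.8 and 19.1 in GM, which overlapped. The difference between the 24 h and the 6 h effect was -0.99 ± 0.48 (adjusted p = 1.00 by edgeR) and did not pass.

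Grxcr1 had 6.24, 5.42 and 5.94 CPM in CTRL at 24 h and 3.31, 2.91 and 4.60 in GM. These groups did not overlap either, at a log2 fold change of -0.70 ± 0.46 (adjusted p = 1.00 by edgeR). Espn had 7.73, 8.32 and 6.81 CPM in CTRL and 9.26, 11.9 and 8.54 in GM, so that all GM libraries were higher (0.38 ± 0.35, adjusted p = 1.00 by edgeR). Groups were thus apart for 3 of 10 genes, against 5.66% of all genes tested. Xirp2 had the largest positive difference, with 13.4, 8.79 and 16.1 CPM in CTRL and 20.2, 11.7 and 24.4 in GM, but the groups overlapped (0.56 ± 0.44). The remaining 6 differed by -0.25 to 0.06 on the log2 scale with overlapping groups.

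Most genes of the HC list had negative log2 fold changes in the same comparison, although the summed levels of the groups overlapped. Of 26 tested, 18 had log2 fold changes below 0 and 8 above, with a median of -0.62 against -0.0025 for all genes tested. EdgeR called 0, 5 had an unadjusted p under 0.05 and 6 had groups apart, all lower. The summed level of the list ran from 610 to 946 CPM in CTRL at 24 h and from 421 to 665 in GM. Relative to the list's median, Myo15a was still lower by a difference of -0.43 on the log2 scale, Grxcr1 differed by -0.07, and the other 8 members lay 0.37 to 1.19 above it. The part of the HC list's level in the Myo15a and Grxcr1 values was not tested. Of the 47 other stereocilia genes, 0 were called by edgeR at either time, with 0 at an unadjusted p under 0.05 at 6 h and 3 at 24 h.

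**Figure D3:**
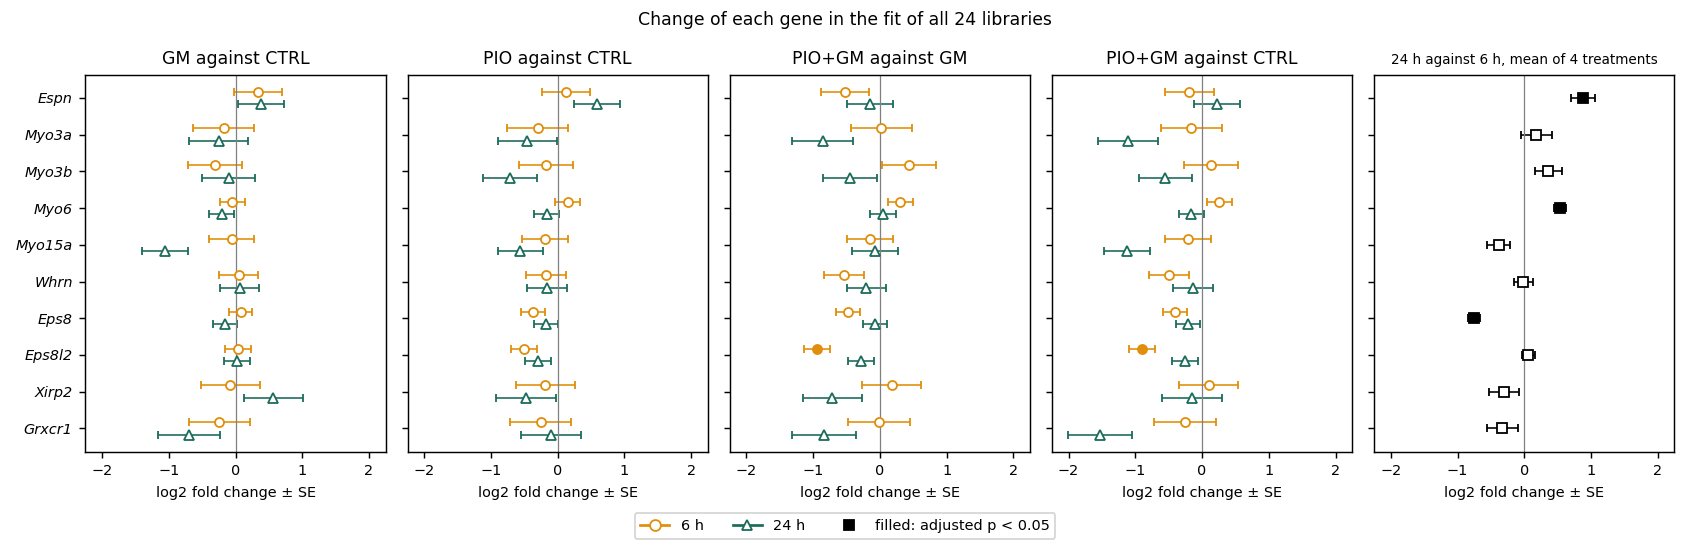
Log2 fold change with its SE for the 10 genes in 4 drug comparisons at 6 h (circles) and 24 h (triangles) and for 24 h against 6 h averaged over the 4 treatments (squares), with filled symbols for an adjusted p under 0.05. Among drug comparisons, Eps8l2 in PIO + GM at 6 h is filled, at -0.94 against GM and -0.91 against CTRL.

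Pioglitazone alone changed 0 of the 10 genes at either time by edgeR's test, and DESeq2 also called 0. The background was 0.337% of all genes at 6 h and 0.153% at 24 h. At 6 h, 8 of the 10 log2 fold changes were below 0, the range over the other 9 was -0.37 for Eps8 to 0.15 for Myo6, and 1 gene, Eps8l2, had an unadjusted p under 0.05, as 15.2% of all genes tested did. Groups were apart for 0 members and for 15.4% of all genes tested. Eps8l2 had 42.5, 32.6 and 49.4 CPM in CTRL and 34.3, 19.0 and 34.5 in PIO, which overlapped (log2 fold change -0.50 ± 0.19, adjusted p = 0.23 by edgeR). The lowest of these was PIO 6 h replicate 2, one of the 3 libraries with a strong GC trend. In the same comparison, 14 of 14 neuronal genes (median -0.62, 1 called lower) and 12 of 12 Schwann cell genes (median -0.86, 0 called) were below 0. Of 26 HC genes 16 were below 0 (median -0.31, 0 called), and 1 of 10 mesenchymal genes was called lower. The summed ranges of these lists overlapped those of CTRL, and the part of these cells in the member values was not tested.

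At 24 h, 9 of the 10 were below 0 in PIO against CTRL, Espn being the exception, and 0 had an unadjusted p under 0.05, against 9.93% of all genes tested. Espn had 7.73, 8.32 and 6.81 CPM in CTRL and 8.93, 14.1 and 11.6 in PIO, with all PIO libraries higher (0.59 ± 0.34, adjusted p = 0.604 by edgeR). The class III myosins were lower in all PIO libraries. Myo3a, at chr2:22227503-22618252, had 11.3, 13.9 and 12.4 CPM in CTRL and 10.9, 6.38 and 10.3 in PIO (-0.45 ± 0.44, adjusted p = 0.80 by edgeR). Myo3b, at chr2:70039126-70429195, had 15.1, 20.2 and 16.6 CPM in CTRL and 11.2, 8.59 and 11.9 in PIO (-0.71 ± 0.40, adjusted p = 0.583 by edgeR). Groups apart for 3 of 10 genes compare with 22.3% of all genes tested. The other 7 overlapped and differed by -0.56 for Myo15a to -0.11 for Grxcr1. The median of the 10 was -0.24, against -0.0096 for all genes, and that of the HC list was -0.40, with 23 of 26 genes below 0 and summed levels of 389 to 745 CPM that overlapped those of CTRL. The sums of 10 mesenchymal genes (3796 to 4828 CPM in PIO against 5623 to 6413 in CTRL, 1 gene called lower) and of 18 muscle genes (18.4 to 28.6 against 34.3 to 38.5, 0 called by edgeR) did not overlap, and the part of these cells in the member values was not tested. At an unadjusted p under 0.05 were 4 of 10 mesenchymal and 3 of 10 muscle genes tested. Of the 47 other stereocilia genes 0 were called by edgeR at either time (9 at an unadjusted p under 0.05 at 6 h and 1 at 24 h). Of these, 35 were below 0 at 6 h (median -0.26) and 40 at 24 h (median -0.21). The summed level of the 48 genes of that list was below CTRL in every PIO library. It was 5908 to 6329 against 7036 to 7885 CPM at 6 h and 5365 to 6521 against 6609 to 7164 at 24 h.

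With both drugs at 6 h, Eps8l2 fell, and it was the one member that any drug comparison called. Eps8l2 lies at chr7:141338911-141363020 on the plus strand. It is called against CTRL and against GM, which are 2 comparisons that share the PIO + GM libraries. The background was 2.64% of genes called against CTRL and 1.32% against GM. Eps8 and Eps8l2 had an unadjusted p under 0.05 in both, as did 23.6% of all genes tested against CTRL and 25% against GM. The 250 bases before the start used for its RefSeq promoter, at chr7:141338752-141339001 and so partly inside the span of the gene, are shown because it is the called gene, with E-box matches in capitals.
Eps8l2: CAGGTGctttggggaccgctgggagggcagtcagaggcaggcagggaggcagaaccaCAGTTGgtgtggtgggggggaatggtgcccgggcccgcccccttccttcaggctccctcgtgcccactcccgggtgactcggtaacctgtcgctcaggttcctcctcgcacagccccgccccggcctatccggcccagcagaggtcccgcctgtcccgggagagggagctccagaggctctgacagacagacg
The window has 2 matches of CANNTG, no AGGTCA or TGACCT, and 69.2% GC, above 89.6% of the promoter windows.

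Eps8l2 had 24.6, 23.4 and 18.4 CPM in PIO + GM at 6 h, 42.5, 32.6 and 49.4 in CTRL and 48.0, 39.3 and 40.4 in GM. All PIO + GM libraries were below all libraries of both other groups. The log2 fold change was -0.91 ± 0.20 against CTRL (adjusted p = 0.0256 by edgeR), or 0.533-fold, and -0.94 ± 0.20 against GM (adjusted p = 0.033 by edgeR), or 0.52-fold. Against PIO, at 34.3, 19.0 and 34.5 CPM, the groups overlapped and the difference was -0.40 ± 0.20 (adjusted p = 0.998 by edgeR), in a comparison with 0 of 10 members called by edgeR and by DESeq2, a background of 0%, 0 members at an unadjusted p under 0.05 (3.06% of all genes tested) and 0 with groups apart (3.38%). The other 9 differed from PIO by -0.32 for Whrn to 0.30 for Myo3b. Whether PIO changed Eps8l2 more with GM than without it did not pass (-0.44 ± 0.27, adjusted p = 1.00 by edgeR).

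GC content moved with this result. The Eps8l2 transcript has 57.3% GC, above 87.4% of the genes tested, and log2 fold changes fell with GC content over 15389 genes in both comparisons (Spearman's rho -0.58 against CTRL and -0.62 against GM). With the GC trend of each library removed, the Eps8l2 log2 fold change shrank and neither call held. It was -0.51 against CTRL (adjusted p = 0.111 by edgeR) and -0.52 against GM (adjusted p = 0.123 by edgeR). Without the 3 libraries of strong GC trend, which leaves 1 PIO + GM library at 6 h that is assumed to vary like the other groups, the differences were -0.76 (adjusted p = 0.265 by edgeR) and -0.80 (adjusted p = 0.548 by edgeR). In a fit of the 6 libraries of each comparison alone, they were -0.90 (adjusted p = 0.354 by edgeR) and -0.93 (adjusted p = 0.258 by edgeR). The call against CTRL was lost without CTRL replicate 1 (adjusted p = 0.0935 by edgeR), CTRL replicate 3 (0.0915), PIO + GM replicate 2 (0.0928) or PIO + GM replicate 3 (0.126). The call against GM was lost without GM replicate 1 (adjusted p = 0.124 by edgeR), GM replicate 2 (0.0619), GM replicate 3 (0.0702), PIO + GM replicate 2 (0.146) or PIO + GM replicate 3 (0.144). Exons of the gene B230206H07Rik on the opposite strand cover 32.2% of the exonic bases of Eps8l2. The libraries were stranded, but the use of strand in counting is not given in the sources used here, so reads of the 2 genes cannot be told apart. B230206H07Rik had 11 to 90 counts per library, against 136 to 639 for Eps8l2.

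Eps8 was the second gene with groups apart in both comparisons at 6 h. Its CPM of 50.6, 41.4 and 44.5 in PIO + GM were below 56.7, 66.1 and 57.7 in CTRL (-0.40 ± 0.18, adjusted p = 0.182 by edgeR) and below 59.6, 59.1 and 71.2 in GM (-0.48 ± 0.18, adjusted p = 0.122 by edgeR). The 2 of 10 genes with groups apart compare with 17.9% of all genes against CTRL and 23% against GM. Whrn, at chr4:63414908-63496083 and with 63.2% GC the most GC-rich of the 10, differed by -0.49 against CTRL and -0.54 against GM with overlapping groups. Its lowest libraries were again those with the strong GC trend, at 10.2 CPM in PIO replicate 2 and at 13.5 and 10.3 in PIO + GM replicates 2 and 3, against 18.0 to 26.9 in the other 9 libraries of 6 h. Of the other 7 members against GM, Espn (62.1% GC) differed by -0.52, Myo15a (57.4%) by -0.15, Myo3b (47.0%) by 0.44, Grxcr1 (44.7%) by -0.02, Myo6 (44.2%) by 0.31, Myo3a (43.2%) by 0.02 and Xirp2 (42.2%) by 0.18. The transcript of Eps8 has 47.6% GC. Of these 8 genes 0 passed, and against CTRL the same 7 ran from -0.26 for Grxcr1 to 0.26 for Myo6. Without PIO + GM 6 h replicate 1, Whrn and Eps8 were also called against GM. That fit kept only replicates 2 and 3 of PIO + GM at 6 h, both libraries of strong GC trend. Among the 47 other stereocilia genes, Capzb (-0.47), the cytoplasmic actins Actb (-0.67) and Actg1 (-0.43) fell against CTRL, and Capzb (-0.56) and Actb (-0.66) fell against GM. Of the 26 HC genes, the transcription factor gene Lhx3 fell against CTRL (-2.38) and 0 were called against GM (5 at an unadjusted p under 0.05). The muscle sum was higher in all PIO + GM libraries, at 93.0 to 114 CPM against 37.2 to 65.6 in CTRL and 36.0 to 85.0 in GM. Of 16 supporting cell genes, 14 were below 0 against CTRL (median -0.36) and 10 against GM (-0.23), and their sums overlapped. Of 10 mesenchymal genes 1 was called lower in each comparison (medians -0.32 and -0.19). Of 14 neuronal genes 12 were below 0 against GM and 1 was called lower, and of 12 Schwann cell genes 11 were below 0 against GM (median -0.44), with overlapping sums for these 3 lists. The part of these cells in the Eps8l2 values was not tested.

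**Figure D4:**
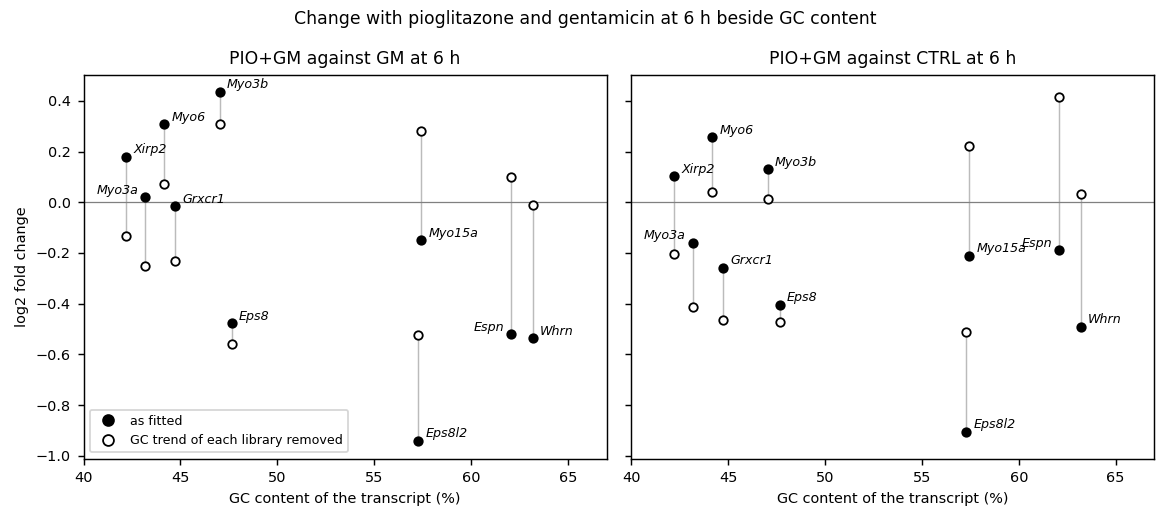
Log2 fold change of the 10 genes at 6 h in PIO + GM against GM (left) and against CTRL (right), plotted over the GC content of the transcript in percent, as fitted (filled) and with the GC trend of each library removed (open). Eps8l2 moved from -0.94 to -0.52 against GM and from -0.91 to -0.51 against CTRL.

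With both drugs at 24 h, 0 members passed against CTRL, GM or PIO by edgeR or by DESeq2, against backgrounds of 0.478%, 0.11% and 0.0735% of genes. An unadjusted p under 0.05 was found for 3 of the 10 against CTRL (9.05% of all genes tested), for 0 against GM (7.47%) and for 1 against PIO (2.59%). Grxcr1 had the largest difference against CTRL and PIO, and Myo3a against GM. The Grxcr1 CPM of 1.79, 1.82 and 2.45 in PIO + GM lay below all libraries of CTRL (6.24, 5.42 and 5.94), of GM (3.31, 2.91 and 4.60) and of PIO (6.10, 3.58 and 6.65). The log2 fold change was -1.54 ± 0.48 against CTRL (adjusted p = 0.193 by edgeR), -0.84 ± 0.48 against GM (adjusted p = 0.756 by edgeR) and -1.43 ± 0.48 against PIO (adjusted p = 0.954 by edgeR). Against CTRL, the adjusted p ranged from 0.0519 to 0.644 over the alternatives, none of which passed.

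Myo15a and Myo3a followed it against CTRL. Myo15a had 17.1, 11.8 and 19.7 CPM in PIO + GM against 35.3, 26.8 and 43.9 in CTRL (-1.12 ± 0.35, adjusted p = 0.179 by edgeR, 0.0559 to 0.581 over the alternatives). Its PIO + GM values overlapped those of GM, at 15.8, 14.9 and 20.4, with a difference of -0.07 ± 0.35. Myo3a had 6.35, 4.70 and 6.38 CPM in PIO + GM against 11.3, 13.9 and 12.4 in CTRL (-1.11 ± 0.45, adjusted p = 0.415 by edgeR, 0.0653 to 0.948 over the alternatives), and against 11.5, 7.90 and 12.3 in GM (-0.86 ± 0.45, adjusted p = 0.73 by edgeR). All PIO + GM libraries of Myo3a were below those of both groups. Groups were apart for 3 of 10 genes against CTRL (21% of all genes), for 3 against GM (18.4%), with Eps8l2 as the third at -0.28, and for 1 against PIO (8.81%). The members that overlapped differed by -0.72 for Xirp2 to 0.05 for Myo6 against GM and by -0.66 for Myo3a to 0.32 for Xirp2 against PIO. Of 26 HC genes, 23 were below 0 against GM (median -0.44) and 22 against PIO (median -0.62), with overlapping sums. The mesenchymal sum was below all of GM (3716 to 4427 against 5395 to 7711 CPM, 1 gene called lower). The muscle sum was above all of PIO (36.6 to 54.3 against 18.4 to 28.6 CPM, 0 called). The part of these cells in the member values was not tested.

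The remaining members had overlapping groups against CTRL with both drugs at 24 h. Espn differed by 0.22, Whrn by -0.14, Xirp2 by -0.15, Myo6 by -0.16, Eps8 by -0.22, Eps8l2 by -0.26 and Myo3b by -0.55, where 2 of 3 PIO + GM libraries of Myo3b lay below every CTRL library. The HC list was lower throughout, with 26 of 26 genes below 0 and a median of -0.995 against CTRL, a summed level of 317 to 555 CPM, and 0 called by edgeR with 16 at an unadjusted p under 0.05. The mesenchymal sum was below CTRL in every PIO + GM library as well, at 3716 to 4427 against 5623 to 6413 CPM (median log2 fold change -0.50, 1 of 10 genes called lower), and 14 of 14 neuronal genes were below 0 (median -0.47, 1 called lower). Relative to the HC list's median, Grxcr1 differed by -0.54, Myo15a by -0.13 and Myo3a by -0.12, and the other 7 lay 0.44 to 1.22 above it. The part of the level of these lists in the member values was not tested. Of the 47 other stereocilia genes, 43 were below 0 against CTRL with a median of -0.30 and 0 called by edgeR (7 at an unadjusted p under 0.05). Replicate 2, with the lowest HC sums, held the lowest Myo15a and Myo3a value of PIO + GM. Without replicate 2 of all 24 h groups, the differences against CTRL were -1.52 for Grxcr1 and -1.10 for Myo15a.

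Differences between effects were tested as interactions in 5 contrasts, and edgeR and DESeq2 called 0 of the 10 members in each, with 0% of all genes called by edgeR in every one. In 1 case a member had an unadjusted p under 0.05 over these contrasts, Eps8l2 in the PIO effect with GM at 24 h minus 6 h (0.66 ± 0.27, adjusted p = 0.843 by edgeR). With and without GM, the PIO effect at 24 h differed by -0.75 ± 0.49 for Espn and by -0.73 ± 0.66 for Grxcr1 (adjusted p = 1.00 for both by edgeR). Over the 10 members, differences ran from -0.99 for Myo15a to 0.64 for Xirp2 in the GM effect at 24 h minus 6 h, and from -0.54 for Myo3b to 0.47 for Espn in the PIO effect at 24 h minus 6 h. With GM, the latter ran from -0.89 for Xirp2 to 0.66 for Eps8l2. The PIO effect with GM minus that without ran from -0.75 for Espn to 0.49 for Myo15a at 24 h and from -0.64 for Espn to 0.61 for Myo3b at 6 h.

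The members fell into unlike patterns over the 24 libraries, described here by Pearson's r of log2 CPM, with no test, since the libraries share depth, groups and HC content. Myo3a and Myo3b were the most alike pair (r = 0.84), followed by Grxcr1 and Myo3a (0.80), Whrn and Eps8l2 (0.78), Myo6 and Myo3b (0.76) and Myo15a and Grxcr1 (0.71). Whrn (63.2% GC) and Eps8l2 (57.3% GC) are both GC-rich, and both were lowest in the 3 libraries of strong GC trend. The part of that trend in their r was not tested. The closest member to Xirp2 was Myo3a (0.59), and to Espn it was Myo6 (0.55). Eps8 resembled no other member, its closest being Myo15a (0.20), and ran against Myo6 (-0.84, or -0.58 after subtraction of the group means). Of all genes tested, those closest to Eps8 were Tinagl1 (0.95), Krt18 (0.95) and Loxl4 (0.93), none of them on the HC or stereocilia lists. With the mean of the HC list, r was 0.85 for Grxcr1, 0.83 for Myo15a, 0.78 for Myo3a, 0.65 for Xirp2, 0.54 for Myo3b, 0.45 for Eps8l2, 0.35 for Myo6, 0.24 for Whrn, -0.03 for Eps8 and -0.05 for Espn. After subtraction of the group means, Xirp2 (0.92), Myo15a (0.87), Myo6 (0.84) and Grxcr1 (0.82) were closest to the list and Eps8 ran against it (-0.76). Outside the 10, the genes whose log2 CPM most resembled the mean of the standardized members were Mycl (0.92), Tgfb2 (0.90), the stereocilia genes Adgrv1 (0.89) and Grxcr2 (0.89), Gm13648 (0.89), Wdr72 (0.88), the HC calcium channel gene Cacna1d (0.87), Rab3b (0.87), Fry (0.86) and Mycbpap (0.86).

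**Figure D5:**
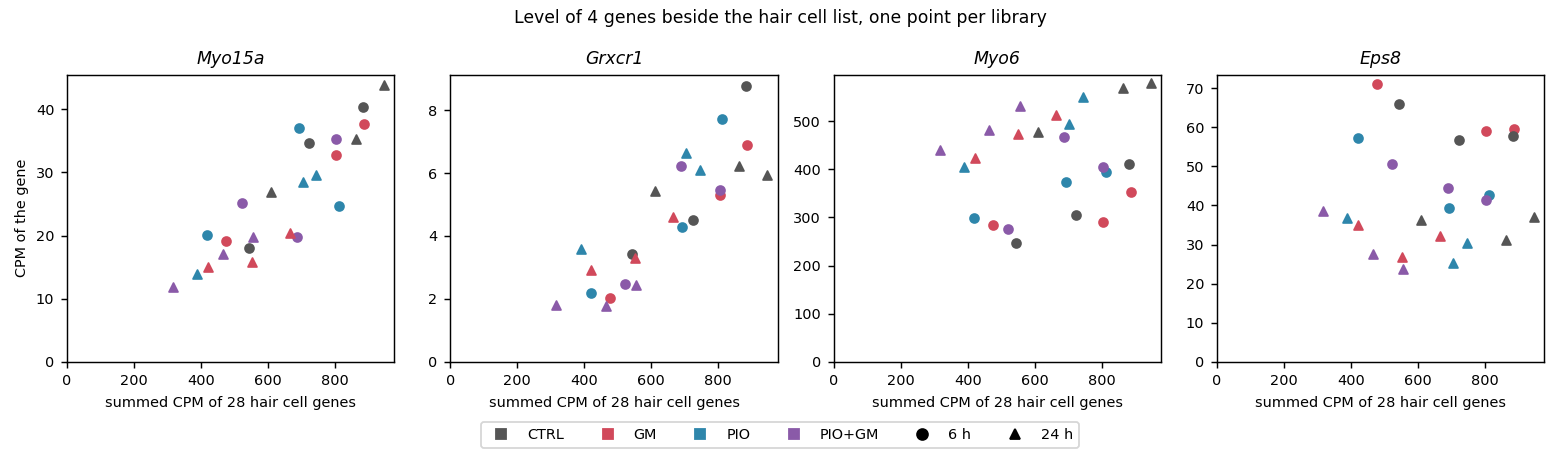
CPM of Myo15a, Grxcr1, Myo6 and Eps8 over the summed CPM of 28 HC genes, one point per library, coloured by treatment (circles, 6 h; triangles, 24 h). Myo15a and Grxcr1 are high where the HC sum is high, whereas Eps8 splits by time, with 39.3 to 71.2 CPM at 6 h and 23.8 to 38.5 at 24 h.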

How the data were processed

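RNA was measured in 24 libraries of 6 pooled OCs. Reads were mapped by the authors to mm10 with RNA-STAR and assigned with qCount of QuasR to the gene in whose RefSeq exons they start. The counts were deposited without normalization beside each gene's length in bases. Strand use and reads with several matches are not given in the sources used here. Of 24454 identifiers, 24381 matched a symbol and 73 did not.

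The counts were analysed here with edgeR 4.0.16 in R 4.3.3 (TMM normalization, filterByExpr, quasi-likelihood F-test, 8 group means in 1 fit of 24 libraries, Benjamini-Hochberg adjustment over 16317 genes, threshold 0.05, common biological coefficient of variation 0.225). The F statistic gave the standard errors, a prior count of 2 entered log2 CPM, and RPKM rest on the deposited length. Python 3.11.15, pandas 2.3.3 and matplotlib 3.10.9 served for descriptions. DESeq2 1.42.0, other scalings and filters, a replicate block, compared groups only and each library left out were alternatives, and 3 alternatives were added after the data were seen, namely the GC trend removed, the 3 libraries of strong GC trend left out and replicate 2 of the 24 h groups left out. The members and gene lists were chosen with earlier results of these data known. The rule was to name all 10 members in every comparison, and members without values of their own there are given by their range. Of the other stereocilia and HC genes, at most 6 per direction with the lowest p among those past the threshold are named, and for other cell types the defining markers and summed levels, of which some are not reported here. The fitting script was checked on simulated counts with known changes. Coordinates are those of RefSeq GRCm38.p6, in which Myo15a is listed as Myo15.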

Additional observations from a re-analysis of the deposited data

How the results depend on the processing

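The rises of Espn and Myo6 and the fall of Eps8 with time, averaged over the 4 treatments, passed under all 32 alternatives run, with log2 fold changes of 0.60 to 0.98, 0.50 to 0.68 and -0.88 to -0.70. Of 331 alternatives to the counts of members called, 297 stayed within 1.5 times, and of 240 fits of called members 200 passed in the same direction, 40 did not pass and 0 reversed.

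Averaged over treatments, 5 members were called with time without the 3 libraries of strong GC trend, Myo3a and Myo3b being added. For time in PIO, 1 member was called without those 3 libraries, 0 in the fit of the compared groups and 1 without replicate 2 of the 24 h groups, and for time in PIO + GM 1 was called in the fit of the compared groups and 1 without replicate 2. For PIO + GM at 6 h, 0 were called against CTRL and 0 against GM without the 3 libraries, with the GC trend removed or in the fit of the compared groups. The cause was not tested, except that fits of the compared groups and of fewer libraries hold fewer samples. Leaving out 1 library at a time gave 3 to 4 members called for time averaged over treatments, 2 to 3 for time in CTRL, 1 to 2 in GM, 1 to 2 in PIO, 0 to 2 in PIO + GM, 0 to 1 for PIO + GM at 6 h against CTRL and 0 to 3 against GM. In comparisons with 0 called, 0 were called in each of these fits.

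Libraries with the same replicate number had a mean correlation of deviations of 0.11 at 6 h, with 9 of 18 pairs over 0.1, and of 0.38 at 24 h, with 15 of 18, against -0.05 (13 of 36) and -0.18 (10 of 36) for different numbers. Deviations were taken from the mean of each group, which ties the means for different numbers to those for the same number. The former are therefore no separate evidence. At each time 8 of 12 libraries were closest to their own number, a hint of pairing from the data, above all at 24 h. Since the labels give no shared source and not every pair was over 0.1, the numbers were not taken to pair the samples. The main fit thus leaves any such block in the spread, although replicate 2 at 24 h stood apart in every treatment. With the replicate block, 4 members were called for time averaged over treatments (Myo15a added), 3 for time in PIO + GM (Eps8l2 added), and 2 or 1 in the other comparisons with calls, as without it. A prior count of 0.5 moved no log2 CPM by more than 0.090. Depth was low for Grxcr1, with 24 to 110 counts per library, and Espn, with 23 to 216.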
